A study of Mus musculus with 14 samples.

Results

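On d10 and d12 of differentiation, embryoid bodies (EBs) labelled shDis3l2 held much higher levels of mesenchymal matrix and contractile mRNAs than EBs labelled shLacZ, and lower levels of visceral endoderm, epithelial, early neural and pluripotency mRNAs. The comparison used 4 of the 14 libraries of a time course, 1 per cell line and day, chosen by their labels as the last 2 days of that course. Both lines were mouse embryonic stem cells (ESCs) grown in LIF and 2i, a pair of kinase inhibitors that hold ESCs in the naive state, and then aggregated in hanging drops in serum without LIF or 2i. In shDis3l2, a stable short hairpin RNA targets Dis3l2, and in the control shLacZ the hairpin targets the bacterial gene LacZ, which mouse cells lack. The study's results place the hairpins in an ESC line that also carries an Osr1-GFP reporter. The sample titles do not name this reporter, so its presence in every library is inferred from the study's account. Each hairpin is represented by 1 line, and nothing in the sources used here separates the hairpin from other differences between those lines. The RNA came from whole EBs, in which fewer cells of a type and less RNA per cell cannot be told apart.

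DIS3L2 is an exoribonuclease that degrades RNAs carrying uridine tails, among them precursors of the let-7 microRNAs and faulty structured noncoding RNAs, and its loss in people causes Perlman syndrome, with fetal overgrowth and kidney tumors. EBs are free-floating aggregates in which ESCs leave pluripotency and form derivatives of the 3 germ layers together with extraembryonic endoderm. Visceral endoderm secretes plasma proteins around such aggregates and lies on a laminin and type IV collagen basement membrane, whereas mesenchyme fills the space between epithelia with fibrillar collagens, proteoglycans and elastic fibers. The study asked how loss of DIS3L2 affects ESC differentiation, with calcium handling and the kidney lineage as its particular interests.

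The 4 libraries held 8261330 (shLacZ d10), 21115319 (shDis3l2 d10), 10083038 (shLacZ d12) and 10679024 (shDis3l2 d12) reads on genes, so 3 reads, the floor used here, corresponded to 0.363, 0.142, 0.298 and 0.281 counts per 1000000 reads (CPM). Dis3l2 itself stood at 19.2 and 19.7 CPM in shLacZ and at 18.3 and 14.9 CPM in shDis3l2, where the first value of each pair is d10 and the second d12, as in every pair below. Where a sentence below sets 2 pairs against each other without naming lines, the first pair is shLacZ and the second shDis3l2. This was 95% of the control at d10 (95% counting interval 78.8 to 115) and 75.4% at d12 (60.9 to 93.4), and the test over both days did not call it (log2 fold -0.24, SE 0.18, adjusted p = 0.328). The same ratio was 13.7% in undifferentiated cells, 55.2% at d6 and 97.1% at d8. The targeted mRNA was thus not detectably lower at d10 at this depth, and shDis3l2 below names libraries by their label, not by their Dis3l2 level. The marker genes put both lines in mixed EBs: 8 of 10 mesenchyme markers were raised in shDis3l2, with a summed level of 1763 and 1346 CPM in shLacZ and 14057 and 13711 CPM in shDis3l2, while 7 of 7 visceral endoderm markers were lowered (6270.1 and 4189 CPM in shLacZ and 1693 and 1265 CPM in shDis3l2). These sums moved with the labels, and the part of cell makeup in any single gene's difference was not tested.

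Genes of chromosome 8 were lower in the libraries labelled shDis3l2 as a block. Over 898 tested genes of this chromosome the median log2 fold was -0.32 at d10 and -0.28 at d12, whereas the medians of the other chromosomes lay between -0.07 and 0.10 at d10 and between -0.003 and 0.10 at d12. On chromosome 8, 343 genes (38.2%) were lowered and 72 (8.02%) raised, against 14.5% lowered and 19% raised elsewhere. The chromosome 8 median was also below zero in undifferentiated cells (-0.44, with other chromosomes between -0.40 and -0.23) and on each day from d2 to d8 (-0.24, -0.24, -0.29 and -0.21). At d2 it lay within the range of the other chromosomes (-0.26 to 0.01), and at d4, d6 and d8 below it. The part of this shift in any single gene was not tested, so each chromosome 8 gene named below is marked as such.

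**Figure D1:**
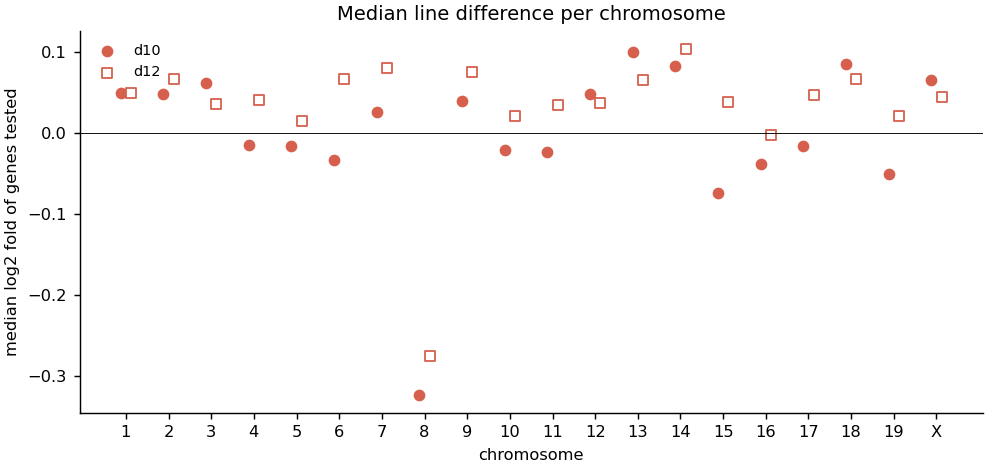
Median log2 fold (shDis3l2 over shLacZ, log2 of CPM + 0.25) of the tested genes of each chromosome, at d10 and at d12. Chromosome 8 stands at -0.32 and -0.28, while every other chromosome lies between -0.07 and 0.10.

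Over both days, with day as a block, 16322 genes were tested with edgeR's quasi-likelihood F test and Benjamini-Hochberg adjustment, and 3002 (18.4%) were raised and 2576 (15.8%) lowered in shDis3l2 at an adjusted p under 0.05. Here "raised" and "lowered" mean past this threshold, and the log2 fold is that of the fit. Its standard error (SE) reads the line difference against the gene's spread over the days, moderated by the spread of the other genes. A lone number in parentheses after a gene is this log2 fold, and a median given for a list is over the log2 folds of its tested members. With 1 library per line and day, the days stand in for replicates and are not separate cultures of one day. Each gene has 1 residual degree of freedom, to which the moderation over all tested genes adds 8.92. The p-values thus rest mostly on the spread typical of other genes and do not measure the spread between cultures. The median log2 fold of all tested genes was 0.00. The same sign on both days was seen in 5577 of the 5578 called genes and in 79.4% of all tested genes. Because the test favors genes whose difference is alike on both days, the agreement among called genes follows largely from the call. Among the called genes whose 4 values are printed below, the shDis3l2 pair lay wholly above or wholly below the shLacZ pair except for Adamts9, Alb, Cacna1d, Cdh5, H2-D1, Kit, Mybpc3, Nog, Pax6, Snai1 and Wnt4, whose values overlapped between the lines when both days were pooled. The rises were larger than the falls: the median log2 fold was 1.17 for raised and -0.72 for lowered genes, 1717 raised genes and 786 lowered genes differed at least 2-fold, and 291 raised genes but 19 lowered genes differed at least 8-fold. Without 1 library the calls numbered 1243 raised and 772 lowered (without shLacZ d10), 1797 and 1015 (without shDis3l2 d10), 1850 and 1244 (without shLacZ d12) and 2301 and 1895 (without shDis3l2 d12). These fits had 3 libraries and no day block, since a day with 1 library leaves no degree of freedom for the block, so each differs from the test in the block as well as in the library, and the lone library of a line is assumed to vary like the other line. A gene named below "lost its call" without a library where its adjusted p in that fit was not under 0.05. Without the day block alone the calls numbered 2347 raised and 1783 lowered.

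Taken 1 day at a time, with no test, 1443 of 16030 genes (9.0%) were at least 2-fold higher in shDis3l2 on both days and 475 (2.96%) at least 2-fold lower on both. Of the genes 2-fold higher at d10, 67.7% were also 2-fold higher at d12, and of those 2-fold higher at d12, 78.9% were so at d10. The falls were less shared, since 36.1% of those at d10 were also 2-fold lower at d12, while 75.9% of those at d12 were so at d10. Among the lowered genes the fall was larger at d10 in 81.3%, with a median log2 fold of -0.84 at d10 and -0.56 at d12, and among the raised genes the rise was larger at d10 in 65.7% (1.19 and 1.02).

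**Figure D2:**
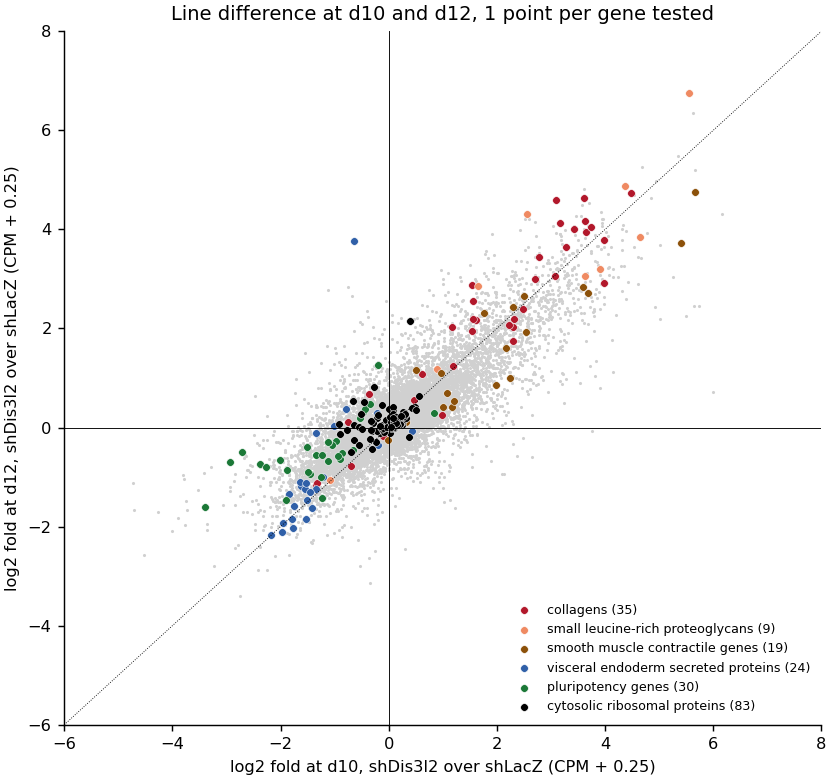
Log2 fold (shDis3l2 over shLacZ, log2 of CPM + 0.25) of each tested gene at d10 (horizontal) and d12 (vertical), with 6 gene groups coloured: collagens, small leucine-rich proteoglycans, smooth muscle, visceral endoderm, pluripotency and ribosomal protein genes. The matrix and muscle groups lie in the upper right, visceral endoderm genes in the lower left, and ribosomal protein genes around zero on both axes.

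The 12 largest rises were led by extracellular matrix genes. Fmod (ENSMUSG00000041559, chromosome 1, 134037254 to 134048277 in GRCm38), the collagen-binding proteoglycan fibromodulin, was at 0.847 and 0.298 CPM in shLacZ and at 51.3 and 58.5 CPM in shDis3l2, a 60.5-fold difference at d10 (95% counting interval 29.3 to 151) and a 197-fold difference at d12 (67 to 956; log2 fold 6.61, SE 0.29, adjusted p = 3.15e-07). Lrrc17, a secreted leucine-rich repeat protein, stood at 1.45 and 0.694 CPM in shLacZ and at 83.7 and 76.8 CPM in shDis3l2 (log2 fold 6.24, SE 0.23, adjusted p = 1.17e-07). Srpx2, a sushi-repeat matrix protein, rose from 0.121 and 0.298 CPM to 11.2 and 17 CPM. Thbs2, the matricellular protein thrombospondin 2, rose from 1.45 and 2.18 CPM to 43.7 and 93.2 CPM, Col6a2, a chain of type VI collagen, from 11.1 and 18.7 CPM to 254 and 507 CPM, and Dcn, the proteoglycan decorin, from 17.7 and 10.8 CPM to 371 and 324 CPM. The remaining members of this group were Tgfb3, a TGF-beta ligand, Actg2, the enteric smooth muscle actin, Tmod1, which caps actin filaments, the neural adhesion protein Negr1, the glutamate receptor subunit Gria1 and the potassium channel subunit Kcnb2, with log2 folds of 4.62 to 6.13. In all 12 genes both shDis3l2 libraries were above both shLacZ libraries, and the adjusted p was at most 8.79e-06. The genes were picked as called, at least 3-fold higher on each day and largest in log2 fold. This separation and these p-values thus follow largely from the choice. In shLacZ 10 of them lay below 3 CPM on both days, so their folds rest on few control reads and, in the fit, on its prior count. 

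The 12 largest falls were led by genes of the early post-implantation embryo. Vrtn (ENSMUSG00000071235, chromosome 12, 84641019 to 84651455 in GRCm38), vertnin, fell from 42.9 and 19.6 CPM to 1.61 and 3.09 CPM, a ratio of 0.0376 at d10 and 0.157 at d12 (log2 fold -3.80, SE 0.38, adjusted p = 6.01e-05). Fgf5, an epiblast growth factor, fell from 26.5 and 13.7 CPM to 1.14 and 4.03 CPM (log2 fold -3.12, SE 0.49, adjusted p = 0.000908). Eomes, a T-box factor of the primitive streak and trophoblast, fell from 45.9 and 18 CPM to 2.84 and 4.87 CPM and Otx2, a homeobox factor of the epiblast and anterior neural plate, from 32 and 30.8 CPM to 2.89 and 7.12 CPM. Also in this group were the DNA methyltransferases Dnmt3b (427 and 252 CPM against 40.2 and 82.5 CPM) and Dnmt3c, the Nodal pathway factor Foxh1, the deubiquitinase Usp44, the insulin receptor substrate Irs4, the fatty acid transporter Slc27a2, the sodium pump regulator Fxyd2 and Xlr4b, a member of an X-linked family whose near-identical copies can share reads. In all 12 genes both shDis3l2 libraries were below both shLacZ libraries, which follows largely from the choice of called genes at least 3-fold lower on each day. In each but Fxyd2 the fall was larger at d10 than at d12. 

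**Figure D3:**
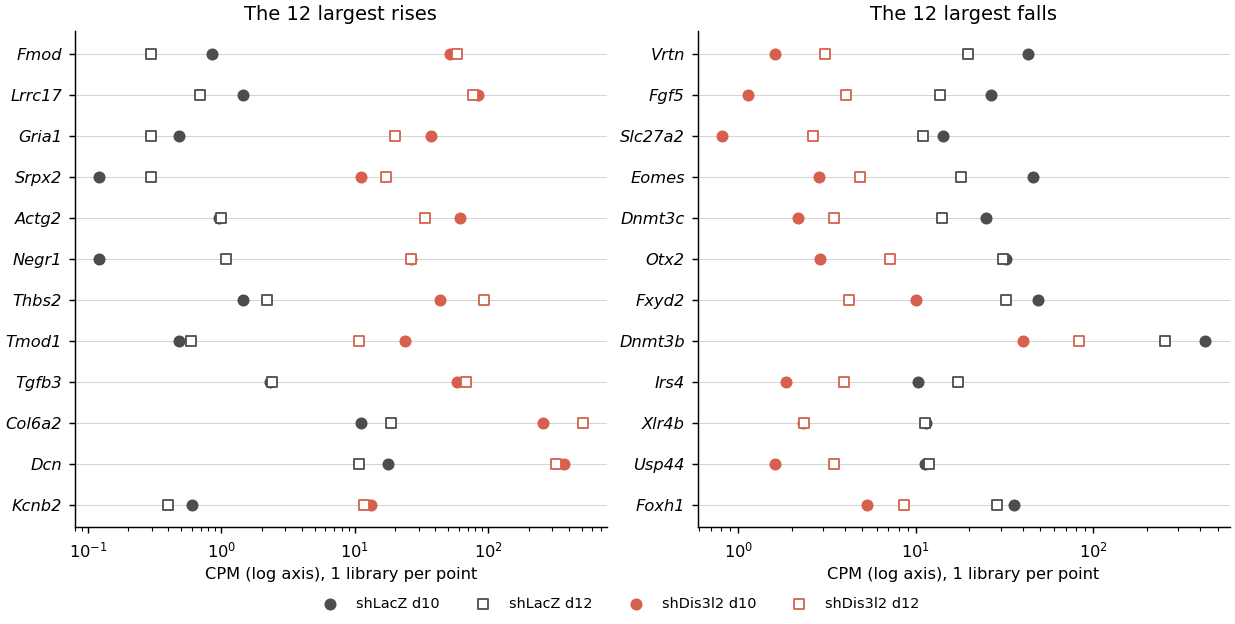
CPM (log axis) of the 12 largest rises and the 12 largest falls in each of the 4 libraries, 1 dot per library. The shDis3l2 dots lie above the shLacZ dots for every rise and below them for every fall.

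The genes were then read as 53 lists of a tissue, pathway or complex. In the plot of called shares, the lists of collagens, proteoglycans, elastic fiber genes, mesenchymal receptors and smooth muscle genes lay far above the 18.4% of all genes that were raised. The lists of visceral endoderm, epithelial junction, pluripotency and neural progenitor genes lay far above the 15.8% that were lowered. Of all tested genes, 456 reached the minimum of the filter on low counts (10 reads in a library of median size) in the shDis3l2 libraries alone and 243 in the shLacZ libraries alone. A gene of this kind passed only through the line where it is high, so a list's share and median lean toward that line by construction where such genes are many.

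**Figure D4:**
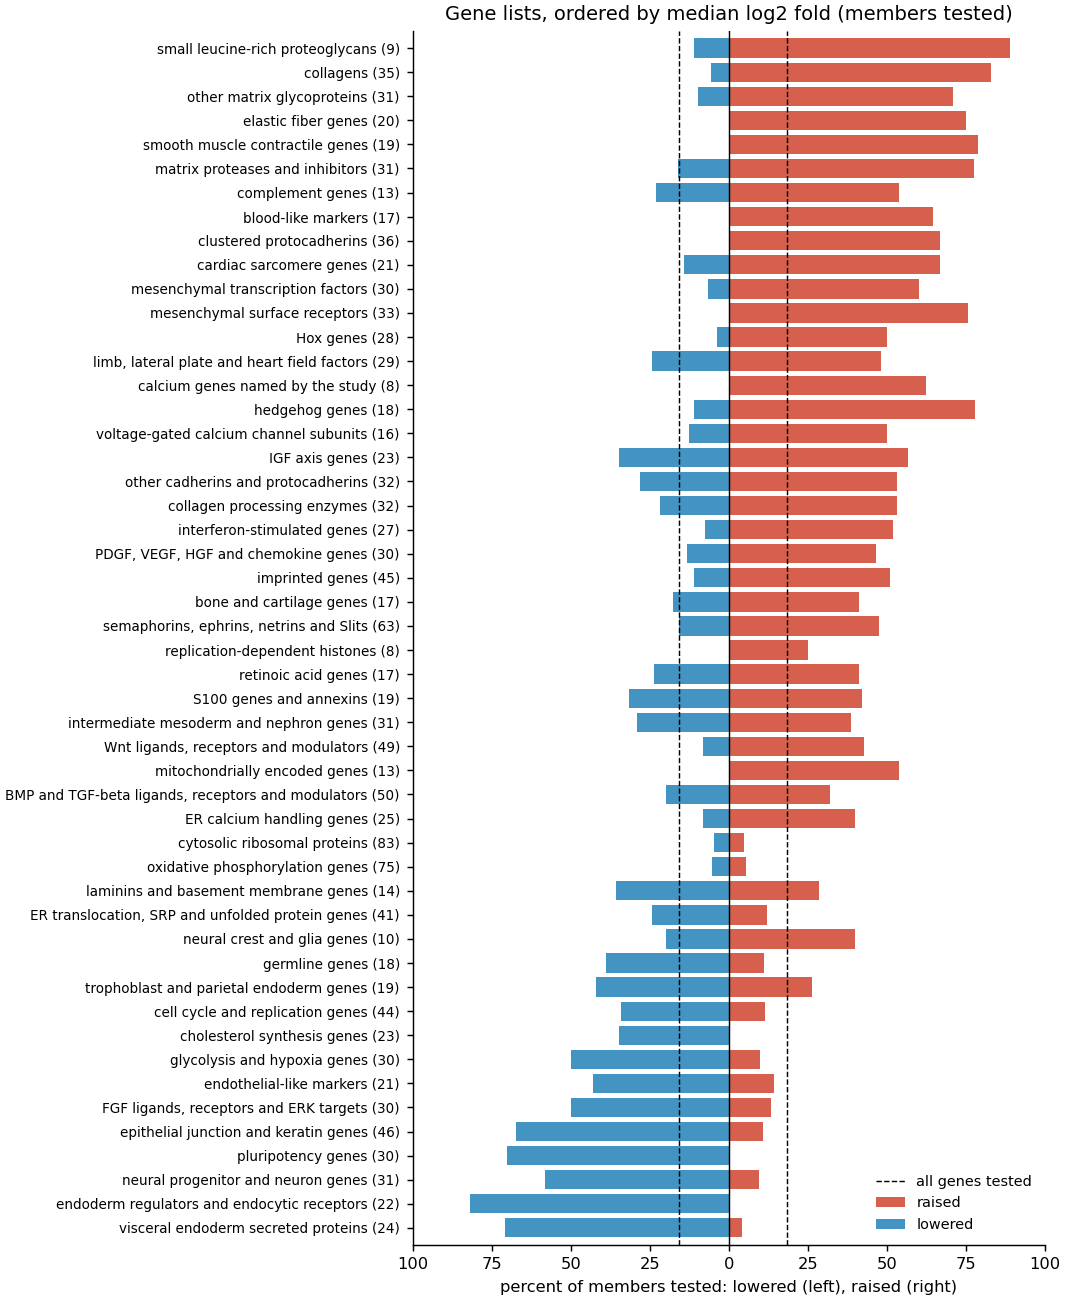
For each gene list, the percentage of tested members lowered (bars to the left) and raised (bars to the right) in shDis3l2, with dashed lines at the percentages over all genes tested (15.8 and 18.4). Small leucine-rich proteoglycans reach 88.9% raised, collagens 82.9%, and endoderm regulators 81.8% lowered.

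Collagens were among the most uniformly raised genes in the libraries labelled shDis3l2. Of 35 tested collagen genes 29 were raised and 2 lowered, with a median log2 fold of 2.32. The minimum of the filter was reached in shDis3l2 alone by 3 of the 35, all of them raised. The other 32 held 26 raised and 2 lowered genes (median 2.29). Col1a2, a chain of the fibrillar type I collagen of skin and bone, was at 183 and 125 CPM in shLacZ and at 2229.9 and 3113 CPM in shDis3l2 (log2 fold 4.11, SE 0.21, adjusted p = 7.28e-07), and Col1a1, its partner chain, at 355 and 146 CPM in shLacZ and at 3048 and 3539 CPM in shDis3l2. Col3a1, the type III chain of distensible tissues, rose from 697 and 493 CPM to 7502 and 7939 CPM. Short-chain Col8a2 (1.09 and 1.19 CPM against 21 and 19.7 CPM) and the fibril-associated Col16a1 (5.2 and 3.97 CPM against 67.2 and 76 CPM) rose by log2 folds of 4.13 and 3.96. The 2 lowered collagens were the basement membrane chains Col4a1 (10202 and 16487 CPM against 4007 and 7404 CPM; log2 fold -1.26, SE 0.09, adjusted p = 6.6e-06) and Col4a2 (log2 fold -1.23), neighbors on chromosome 8, whereas the X-linked type IV chain Col4a5 was raised (45.2 and 48.4 CPM against 222 and 198 CPM). With 1 library left out, 23 to 25 (fewest without shDis3l2 d10 or shLacZ d12) collagens were raised and 0 to 2 (fewest without shDis3l2 d10) lowered. Col4a1 and Col4a2 lost their calls without shDis3l2 d10 or shLacZ d12 (adjusted p = 0.0621 to 0.124).

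Small leucine-rich proteoglycans, which bind and space collagen fibrils, were raised in 8 of 9 tested genes (median log2 fold 4.46). Of the 9, 4 reached the minimum of the filter in shDis3l2 alone, and among the other 5, 4 were raised and 1 lowered (median 2.39); the list's remaining 9 members were too low to test. Lum, lumican, rose from 51.7 and 39.9 CPM to 644 and 332 CPM and Ogn, osteoglycin, from 0.847 and 0.298 CPM to 27.2 and 7.58 CPM, while Podn, podocan, was the single lowered member (7.02 and 7.54 CPM against 3.17 and 3.46 CPM; log2 fold -1.14, SE 0.26, adjusted p = 0.00766). Among 31 other matrix glycoproteins, 22 were raised and 3 lowered (median 2.11). The minimum of the filter was reached in shDis3l2 alone by 3 of the 31, all of them raised. The other 28 held 19 raised and 3 lowered genes (median 1.63). Sparcl1, a relative of osteonectin, rose from 1.69 and 3.27 CPM to 53.2 and 53.1 CPM, and the sushi-repeat gene Srpx from 0.605 and 0.298 CPM to 9.14 and 10.3 CPM. The matricellular genes Ccn1 and Ccn2, targets of serum and mechanical signals, moved the other way, Ccn2 from 287 and 412 CPM to 139.6 and 167 CPM (log2 fold -1.18, SE 0.11, adjusted p = 3.65e-05). All 8 raised proteoglycan calls were also made without any 1 library. Ccn1 lost its call without shLacZ d10 (adjusted p = 0.104). Podn lost its call without shDis3l2 d10, shLacZ d10 or shLacZ d12 (adjusted p = 0.0604 to 0.0749).

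Elastic fiber genes were raised beside the collagens. Of 20 elastic fiber genes 15 were raised and 0 lowered (median 2.04), among them Fbn2, a microfibril protein of the embryo (71.3 and 87.1 CPM against 551 and 508 CPM), Emilin1 (20.9 and 25.9 CPM against 222 and 236 CPM), the microfibril-associated Mfap4 (log2 fold 3.35) and Ltbp3, which binds latent TGF-beta (log2 fold 2.89). Elastic fiber genes that reached the minimum of the filter in shDis3l2 alone numbered 2 of 20, and these were raised. The other 18 held 13 raised and 0 lowered genes (median 1.70). Of 32 collagen processing enzymes 17 were raised and 7 lowered. The raised members included the cross-linking oxidases Lox (2.54 and 2.18 CPM against 42.8 and 42.3 CPM) and Loxl1 (log2 fold 3.44), the procollagen peptidase Adamts2 (3.72) and the peptidase enhancer Pcolce (3.11), which act outside the cell, and the prolyl hydroxylases P3h1 (0.70) and P4ha3 (0.94), which act inside it. The lowered members included the intracellular hydroxylases Plod2 (678 and 729.8 CPM against 382 and 429 CPM), P4ha1 (-0.69) and P3h2 (-0.61), the secreted enhancer Pcolce2 (-1.40) and the collagen-binding Sparc (4829 and 5710.4 CPM against 3286 and 3881 CPM), which is also abundant in parietal endoderm. Without 1 library, 11 to 13 (fewest without shLacZ d10) processing enzymes were raised and 1 to 4 (fewest without shDis3l2 d10 or shLacZ d12) lowered, and 14 to 15 (fewest without shLacZ d10, shDis3l2 d10 or shDis3l2 d12) elastic fiber genes were raised. P3h2 and P4ha1 lost their calls without shDis3l2 d10 or shLacZ d12 (adjusted p = 0.0521 to 0.0956). Sparc lost its call without any 1 of the 4 libraries (adjusted p = 0.0616 to 0.21). P3h1 lost its call without shDis3l2 d12 or shLacZ d10 (adjusted p = 0.0609 to 0.162). P4ha3 and Pcolce2 lost their calls without shDis3l2 d10, shLacZ d10 or shLacZ d12 (adjusted p = 0.0925 to 0.298).

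Laminins split by chain. The chains of laminin-111, the early embryonic basement membrane laminin, were lowered together: Lama1 at 3976 and 7092 CPM in shLacZ and at 1829.9 and 3816 CPM in shDis3l2, Lamb1 at 2871 and 5069 CPM in shLacZ and at 1333 and 2670.1 CPM in shDis3l2 and Lamc1 at 3308 and 5774 CPM in shLacZ and at 1729.6 and 3141 CPM in shDis3l2, with log2 folds of -1.03 to -0.92. Lama5, an epithelial chain, was also lowered (log2 fold -0.82), while Lama2, a muscle and mesenchyme chain (2.66 and 2.98 CPM against 13.4 and 8.24 CPM), Lama4 (0.83) and Lamb2 (0.46) were raised. Of 14 laminin and basement membrane genes 4 were raised and 5 lowered, the median log2 fold was 0.01, and the larger of these counts changed side without shDis3l2 d10 or shLacZ d12 and with no day block (2 raised and 1 lowered). Matrix proteases and their inhibitors were raised in 24 of 31 genes and lowered in 5 (median 1.67), with Mmp19 at 0.847 and 1.69 CPM in shLacZ and at 22.6 and 30.2 CPM in shDis3l2, the aggrecanase Adamts5 at 0.968 and 0.992 CPM in shLacZ and at 12.5 and 11.1 CPM in shDis3l2, the membrane protease Mmp16 at a log2 fold of 3.27 and Adamts12 at 3.18. Lowered were Mmp24 (12.3 and 9.72 CPM against 4.74 and 4.31 CPM), Mmp15 on chromosome 8 (-0.54), the inhibitor Timp3 (-0.62) and Adamts9 (497 and 1230.3 CPM against 412 and 639 CPM). Without 1 library, 18 to 23 (fewest without shLacZ d10) of these were raised and 1 to 4 (fewest without shLacZ d10 or shDis3l2 d10) lowered. Adamts9 lost its call without shDis3l2 d10, shDis3l2 d12 or shLacZ d12 (adjusted p = 0.143 to 0.926). Lama1, Lamb1 and Lamc1 lost their calls without shDis3l2 d10 or shLacZ d12 (adjusted p = 0.248 to 0.3). Lama4, Lamb2 and Timp3 lost their calls without shDis3l2 d10, shDis3l2 d12 or shLacZ d10 (adjusted p = 0.0591 to 0.525). Mmp15 lost its call without shDis3l2 d10 or shLacZ d10 (adjusted p = 0.138 to 0.286). Mmp24 lost its call without shLacZ d10 (adjusted p = 0.0675). The sign turned for Adamts9 without shLacZ d12 (log2 fold 0.05).

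Most transcription factors of mesenchyme were raised beside its matrix. Of 30 tested, 18 were raised and 2 lowered, with a median log2 fold of 1.37. Of the 30, 5 reached the minimum of the filter in shDis3l2 alone, all of them raised. Among the other 25, 13 were raised and 2 lowered (median 1.14). Prrx1, a homeobox factor of limb and craniofacial mesenchyme, was at 3.39 and 3.97 CPM in shLacZ and at 32.1 and 38.6 CPM in shDis3l2 (log2 fold 3.25, SE 0.20, adjusted p = 2.12e-06). The basic helix-loop-helix factor Twist2 rose from 2.3 and 1.49 CPM to 17.7 and 10 CPM and Tcf21, a factor of visceral organ and kidney stroma, from 1.69 and 2.38 CPM to 7.44 and 14.3 CPM. Osr1, a factor of intermediate and lateral mesoderm, rose from 0.968 and 0.893 CPM to 7.01 and 14 CPM, in lines that by the study's account both carry the Osr1-GFP reporter. Zeb1, a repressor of epithelial genes, rose from 14 and 20.9 CPM to 104 and 77.1 CPM, whereas Snai1, another such repressor, was lowered on each day (31.6 and 55.9 CPM against 18.6 and 34.1 CPM) with values that overlap between the lines, and Twist1 was not called (6.29 and 10.5 CPM against 11.1 and 13.2 CPM; log2 fold 0.55, SE 0.23, adjusted p = 0.087). Without 1 library, 13 to 16 (fewest without shLacZ d10) were raised and 0 to 1 (fewest without shDis3l2 d10 or shLacZ d12) lowered. Snai1 lost its call without shDis3l2 d10 or shLacZ d12 (adjusted p = 0.391 to 0.523).

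Positional regulators showed more than one pattern. Among 29 limb, lateral plate and heart field factors 14 were raised and 7 lowered (median 1.04). The T-box factors Tbx4, of hindlimb, lung and allantois (1.69 and 1.69 CPM against 47 and 14.1 CPM), and Tbx2 (3.87 and 3.47 CPM against 26.9 and 34.9 CPM) were raised, as were the mesothelial and kidney factor Wt1 (2.97) and the nuclear receptor Nr2f1 (2.76). Lowered members included Sall4, also a pluripotency factor (164 and 154 CPM against 59.5 and 79.7 CPM), Sall3 (-1.94), Msx1 (-1.06) and Msx2 (-1.0). Of 28 Hox genes 14 were raised and 1, the 5′ gene Hoxc13, lowered (4.96 and 2.38 CPM against 1.47 and 1.69 CPM). The largest rises were also in 5′ genes, which pattern the distal limb and the caudal body: Hoxa11 at 1.21 and 0.694 CPM in shLacZ and at 22 and 18.9 CPM in shDis3l2, Hoxa10 at 2.42 and 1.79 CPM in shLacZ and at 33.8 and 31.7 CPM in shDis3l2, Hoxa13 with a log2 fold of 3.43 and Hoxd13 with 3.24. No gene of the Hoxb cluster was called among the 7 tested. In the 6 tested somite and sclerotome genes 1 was raised, Scx, a tendon factor, at 0.242 and 0.198 CPM against 1.23 and 1.69 CPM. Scx was also the only 1 of the 6 that reached the minimum of the filter in shDis3l2 alone. Among the other 5, 0 were raised and 0 lowered (median -0.17). Without 1 library, 9 to 14 (fewest without shLacZ d10) limb and heart field genes and 9 to 12 (fewest without shDis3l2 d10) Hox genes were raised, and Scx was in no case. Msx2 lost its call without shLacZ d12 (adjusted p = 0.0631). Hoxc13 lost its call without shDis3l2 d10, shDis3l2 d12 or shLacZ d10 (adjusted p = 0.137 to 0.534). Scx lost its call without any 1 of the 4 libraries (adjusted p = 0.0577 to 0.109).

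Surface receptors of mesenchyme were raised in 25 of 33 genes and lowered in 0 (median 1.29). The collagen receptor Ddr2 was at 5.57 and 5.95 CPM in shLacZ and at 49.8 and 62.6 CPM in shDis3l2, the receptor kinase Axl at 21.3 and 15.9 CPM in shLacZ and at 224 and 136 CPM in shDis3l2, the lipid receptor S1pr3 at 7.14 and 6.84 CPM in shLacZ and at 86.9 and 47.9 CPM in shDis3l2 and the adhesion receptor Vcam1 at 5.08 and 5.95 CPM in shLacZ and at 53.6 and 48.7 CPM in shDis3l2, with adjusted p of at most 3.14e-06. Pdgfra, a general mesoderm receptor that primitive endoderm also carries, was raised far less (422 and 479.7 CPM against 523 and 628 CPM; log2 fold 0.34, SE 0.09, adjusted p = 0.0199), and Pdgfrb, of pericytes and stroma, more (22.5 and 39.1 CPM against 97.5 and 99.9 CPM; log2 fold 1.70). Fap, of activated fibroblasts, had 0 reads in both shLacZ libraries and 0.995 and 1.78 CPM in shDis3l2, at least 2.74-fold higher at d10 and at least 5.98-fold at d12 against a floor of 3 reads per library. Bone and cartilage genes were raised in 7 and lowered in 3 of 17: Postn, periostin, rose from 182 and 120.3 CPM to 1826 and 788 CPM, Matn2 from 3.87 and 2.78 CPM to 15.5 and 26.3 CPM, and the collagen-modulating Cthrc1 and the chondrogenic Sox6 by log2 folds of 1.87 and 1.95. The bone master regulator Runx2 was not called (1.45 and 0.992 CPM against 1.75 and 2.72 CPM), nor was the cartilage regulator Sox9 (2.42 and 6.05 CPM against 2.94 and 7.77 CPM). Pth1r, which endoderm also expresses, fell from 321 and 392 CPM to 163 and 264 CPM, and Ihh had a log2 fold of -0.97. Without 1 library, 17 to 20 (fewest without shLacZ d10) receptors were raised. Ihh lost its call without shLacZ d10 (adjusted p = 0.0586). Pth1r lost its call without shDis3l2 d10, shLacZ d10 or shLacZ d12 (adjusted p = 0.0504 to 0.103). Pdgfra lost its call without any 1 of the 4 libraries (adjusted p = 0.104 to 0.487).

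Smooth muscle contractile genes were raised in 15 of 19 and lowered in 0, with a median log2 fold of 1.85. Acta2, smooth muscle alpha actin, was at 64.6 and 52.4 CPM in shLacZ and at 786 and 378 CPM in shDis3l2 (log2 fold 3.22, SE 0.17, adjusted p = 1e-06), Tagln, transgelin, at 21.3 and 11.1 CPM in shLacZ and at 122 and 71.3 CPM in shDis3l2, and Myh11, the myosin heavy chain of differentiated smooth muscle, at 0 and 0.496 CPM in shLacZ and at 10.3 and 9.65 CPM in shDis3l2. Myocd, the coactivator that drives these genes, was also raised (0.121 and 1.29 CPM against 4.5 and 9.83 CPM; log2 fold 3.34), whereas Cnn1, calponin, was not called (3.99 and 2.28 CPM against 5.78 and 5.43 CPM). Cardiac sarcomere genes were raised in 14 of 21 and lowered in 3 (median 1.45), with cardiac actin Actc1 at 3.15 and 4.26 CPM in shLacZ and at 44.5 and 24.2 CPM in shDis3l2, the atrial light chains Myl4 and Myl7 at log2 folds of 2.99 and 2.64, and troponin T, Tnnt2, at 3.87 and 5.95 CPM in shLacZ and at 38.9 and 22.7 CPM in shDis3l2. The summed level of the smooth muscle markers was 89.9 and 66.2 CPM in shLacZ and 924 and 464 CPM in shDis3l2, and that of the cardiomyocyte markers 25.4 and 30.6 CPM in shLacZ and 103 and 78.2 CPM in shDis3l2. In both lists the rise was smaller at d12 than at d10, with medians of 1.99 and 1.17 for smooth muscle and 1.79 and 0.80 for cardiac genes. Cardiac genes that reached the minimum of the filter in shDis3l2 alone numbered 2 of 21, and these were raised. The other 19 held 12 raised and 3 lowered genes (median 1.11). Lowered sarcomere-list members were Mybpc3 (63.9 and 42 CPM against 51.6 and 28.8 CPM), the small heat shock gene Cryab (-0.55) and Myl3 (-0.84). Without 1 library, 10 to 15 (fewest without shLacZ d10 or shDis3l2 d10) smooth muscle and 7 to 14 (fewest without shDis3l2 d10) cardiac genes were raised. Cryab and Mybpc3 lost their calls without shDis3l2 d12, shLacZ d10 or shLacZ d12 (adjusted p = 0.105 to 0.97). Myl3 lost its call without shDis3l2 d10 or shLacZ d12 (adjusted p = 0.299 to 0.5).

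Serum response factor and myocardin act on actin genes through the CArG box, CC, 6 bases mostly A or T, then GG. The promoter windows of Acta2 (chr19:34255324-34255623, minus strand) and Actc1 (chr2:114052826-114053125, minus strand), from 250 bases before to 50 after the start in RefSeq on GRCm38.p6, are shown because both genes rose and hold such boxes, here with at most 1 G or C in the core, in capitals (both strands searched, overlaps counted):
Acta2: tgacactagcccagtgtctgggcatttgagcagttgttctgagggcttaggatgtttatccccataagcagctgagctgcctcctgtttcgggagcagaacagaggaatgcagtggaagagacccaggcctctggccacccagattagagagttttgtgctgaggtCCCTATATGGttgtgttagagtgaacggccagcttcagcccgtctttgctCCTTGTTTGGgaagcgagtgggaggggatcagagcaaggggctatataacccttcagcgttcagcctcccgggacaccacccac
Actc1: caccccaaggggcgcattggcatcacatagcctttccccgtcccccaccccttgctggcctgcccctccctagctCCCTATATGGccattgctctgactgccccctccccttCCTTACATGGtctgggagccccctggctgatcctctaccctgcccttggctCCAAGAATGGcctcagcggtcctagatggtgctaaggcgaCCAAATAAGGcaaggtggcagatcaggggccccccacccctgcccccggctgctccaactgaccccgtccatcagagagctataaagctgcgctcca
Acta2 has 2 such matches, 34 to 84 bases before the start, and Actc1 has 4, 47 to 175 bases before it. The box was found in 4 of 14 smooth muscle genes with a window (28.6%) and in 6 of 22 cardiac genes (27.3%), against 11.3% of 27025 genes. Of the 4 smooth muscle genes with a match 3 were raised, against 10 of all 14 with a window. Of the 6 cardiac genes 5 were raised and 1 lowered, against 13 raised and 2 lowered of all 22.

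Of the insulin-like growth factor (IGF) axis, 13 of 23 genes were raised and 8 lowered (median 0.83). Igf2, the fetal growth factor, was at 779 and 802 CPM in shLacZ and at 7636 and 6808 CPM in shDis3l2 (log2 fold 3.18, SE 0.11, adjusted p = 1.08e-07), and Igf2r, the receptor that clears it, at 327 and 299.9 CPM in shLacZ and at 1299 and 1136 CPM in shDis3l2 (log2 fold 1.94, SE 0.10, adjusted p = 7.37e-07). Binding proteins divided: Igfbp7 rose from 2.18 and 2.38 CPM to 30.6 and 22.6 CPM and Igfbp5 from 79.5 and 174 CPM to 434 and 562 CPM, while Igfbp2 fell from 64.8 and 73.4 CPM to 42 and 46.8 CPM. Downstream, the adaptor Irs4 and, on chromosome 8, Irs2 were lowered (log2 folds -2.31 and -0.99), as was Stc2, an inhibitor of binding protein cleavage (-1.18). The signalling receptor Igf1r was raised slightly (72.7 and 78.7 CPM against 96.5 and 96.9 CPM; log2 fold 0.34, SE 0.11, adjusted p = 0.0333), and the translation regulator Igf2bp1 was lowered (-0.57). Without 1 library, 7 to 12 (fewest without shLacZ d10) were raised and 4 to 5 (fewest without shLacZ d10 or shDis3l2 d10) lowered. Igf1r lost its call without any 1 of the 4 libraries (adjusted p = 0.0819 to 0.355). Igf2bp1 lost its call without shDis3l2 d10 or shLacZ d10 (adjusted p = 0.0534 to 0.0855).

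BMP and TGF-beta genes went both ways, 16 of 50 (32%) being raised and 10 (20%) lowered. Of all tested genes 18.4% were raised and 15.8% lowered. Of the TGF-beta ligands, Tgfb3 was at 2.3 and 2.38 CPM in shLacZ and at 58.5 and 67.4 CPM in shDis3l2 (log2 fold 4.73, SE 0.19, adjusted p = 1.83e-07), and Tgfb1 and Tgfb2 were raised by log2 folds of 1.44 and 1.41. Tgfbi, a matrix protein named for its induction by TGF-beta, rose from 41 and 32.8 CPM to 319 and 278 CPM. Gdf10 (3.14) and the BMP antagonist Nbl1 (2.87) were also raised. Nodal, the ligand that patterns the epiblast, fell from 15 and 9.52 CPM to 3.27 and 5.99 CPM, and Bmp2 and Bmp6, both made in extraembryonic endoderm, fell by 1.07 and 1.33 on the log2 scale. Id1, a direct BMP target, was lowered (50 and 45.4 CPM against 27.4 and 33.4 CPM), and the antagonist Nog was lowered on each day (5.81 and 24.6 CPM against 1.99 and 9.93 CPM) with values that overlap between the lines. Without 1 library, 12 to 14 (fewest without shLacZ d10) were raised and 2 to 9 (fewest without shDis3l2 d10) lowered. Bmp2 lost its call without shDis3l2 d10 or shLacZ d12 (adjusted p = 0.119 to 0.164). Bmp6 and Nodal lost their calls without shDis3l2 d10 or shLacZ d10 (adjusted p = 0.0573 to 0.126). Nog lost its call without shDis3l2 d10, shLacZ d10 or shLacZ d12 (adjusted p = 0.0597 to 0.959). Id1 lost its call without shLacZ d10 (adjusted p = 0.0932).

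Hedgehog genes were raised in 14 of 18 and lowered in 2 (median 0.94). Among them Gli1, a transcription factor and direct target, was at 27.8 and 35.3 CPM in shLacZ and at 82.8 and 121 CPM in shDis3l2 (log2 fold 1.67, SE 0.12, adjusted p = 6.59e-06), Gli2 at 17.3 and 17.6 CPM in shLacZ and at 72.2 and 61.4 CPM in shDis3l2, the coreceptor Gas1 at 5.33 and 5.16 CPM in shLacZ and at 62.9 and 39.9 CPM in shDis3l2 and Scube1, of a family that helps release ligand, at 2.06 and 12 CPM in shLacZ and at 123 and 67.1 CPM in shDis3l2. The target and receptor Ptch1 had a log2 fold of 0.63. The ligand of endoderm, Ihh, was lowered (92.4 and 69.2 CPM against 34.4 and 49.5 CPM), as was Scube2 (-0.99), while Shh was low and raised (1.57 and 2.68 CPM against 3.22 and 5.52 CPM). Of 49 Wnt genes 21 were raised and 4 lowered (median 0.33). The minimum of the filter was reached in shDis3l2 alone by 4 of the 49 and in shLacZ alone by 2. The other 43 held 18 raised and 3 lowered genes (median 0.27). The rises were largest for Wnt2, a mesenchymal ligand (0.968 and 2.58 CPM against 60.5 and 15.3 CPM), and for secreted inhibitors and relatives, Dkk3 (3.39 and 7.64 CPM against 64 and 64.5 CPM), Dkk2 (3.35) and Sfrp1 on chromosome 8 (2.96). Lowered were Wnt4 (15.7 and 26.9 CPM against 7.44 and 22.1 CPM), the effector Tcf7 (-0.86), and at low levels Wnt3 (6.42 and 3.67 CPM against 0.663 and 1.59 CPM) and the target Sp5 (4.24 and 1.39 CPM against 0.474 and 0.843 CPM); the common target Axin2 was not called (21.4 and 19.7 CPM against 12.1 and 21.2 CPM). Without 1 library, 8 to 11 (fewest without shLacZ d10) hedgehog and 11 to 16 (fewest without shLacZ d10) Wnt genes were raised. Ihh lost its call without shLacZ d10 (adjusted p = 0.0586). Scube2 and Wnt4 lost their calls without shDis3l2 d10, shLacZ d10 or shLacZ d12 (adjusted p = 0.0752 to 0.995). Tcf7 and Wnt3 lost their calls without shDis3l2 d10 or shLacZ d10 (adjusted p = 0.0617 to 0.136). Ptch1 lost its call without shDis3l2 d12 or shLacZ d10 (adjusted p = 0.161 to 0.312). Shh lost its call without any 1 of the 4 libraries (adjusted p = 0.0776 to 0.449). Sp5 lost its call without shDis3l2 d10, shDis3l2 d12 or shLacZ d10 (adjusted p = 0.0666 to 0.41). The sign turned for Wnt4 without shDis3l2 d10 (log2 fold 0.0035).

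Of 17 retinoic acid genes 7 were raised and 4 lowered. Rarb, a receptor and direct target of retinoic acid, was at 1.09 and 3.87 CPM in shLacZ and at 50.7 and 33.6 CPM in shDis3l2 (log2 fold 3.99, SE 0.38, adjusted p = 3.99e-05), and Aldh1a2, the mesodermal enzyme that makes it, at 2.18 and 2.38 CPM in shLacZ and at 30.5 and 33.8 CPM in shDis3l2 (log2 fold 3.80, SE 0.22, adjusted p = 1.51e-06). Rxra, the partner receptor, and Crabp2, the carrier to the nucleus, were raised by log2 folds of 1.01 and 0.86. Rbp4, the serum carrier of retinol made by visceral endoderm, fell from 609 and 280.1 CPM to 239.6 and 119 CPM. Cyp26a1, which degrades retinoic acid and is also its direct target, was lowered (85.7 and 63.8 CPM against 51.2 and 56.6 CPM; log2 fold -0.47, SE 0.14, adjusted p = 0.0257), as did the retinol dehydrogenase Rdh10 (-0.34) and the retinol transporter Stra6 (-0.54). Without 1 library, 3 to 5 (fewest without shLacZ d10) were raised and 0 to 3 (fewest without shLacZ d10 or shDis3l2 d12) lowered. Crabp2 and Cyp26a1 lost their calls without shDis3l2 d10, shDis3l2 d12 or shLacZ d10 (adjusted p = 0.0585 to 0.4). Rbp4 lost its call without shDis3l2 d12 or shLacZ d10 (adjusted p = 0.155 to 0.281). Rdh10 and Stra6 lost their calls without any 1 of the 4 libraries (adjusted p = 0.0602 to 0.943).

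The windows of Rarb (chr14:16575427-16575726, minus strand) and Cyp26a1 (chr19:37697558-37697857, plus strand) are shown because these targets moved in opposite directions and yet both hold the retinoic acid response element searched, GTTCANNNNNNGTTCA, on either strand, in capitals (RefSeq, GRCm38.p6):
Rarb: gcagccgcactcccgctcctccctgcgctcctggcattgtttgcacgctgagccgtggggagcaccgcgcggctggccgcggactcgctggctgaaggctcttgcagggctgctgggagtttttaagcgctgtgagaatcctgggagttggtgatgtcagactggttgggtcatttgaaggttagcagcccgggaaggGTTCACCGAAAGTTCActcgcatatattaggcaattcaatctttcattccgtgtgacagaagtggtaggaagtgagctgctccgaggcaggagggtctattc
Cyp26a1: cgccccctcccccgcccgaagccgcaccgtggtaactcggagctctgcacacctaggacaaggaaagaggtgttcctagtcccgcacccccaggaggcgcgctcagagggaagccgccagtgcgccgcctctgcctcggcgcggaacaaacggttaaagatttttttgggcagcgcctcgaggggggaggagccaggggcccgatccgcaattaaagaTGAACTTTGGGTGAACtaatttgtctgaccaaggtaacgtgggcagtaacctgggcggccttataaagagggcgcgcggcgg
The match lies 52 bases before the start in Rarb and 32 bases before it in Cyp26a1, on opposite strands. These were 2 of 15 retinoic acid genes with a window (13.3%), while 24 of 27025 genes (0.0888%) held the element anywhere in the window. A single fixed form of the element was searched, chosen with earlier results known, so the gap between these shares is no test of enrichment.

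Fibroblast growth factor (FGF) genes leaned down, 15 of 30 being lowered and 4 raised (median -0.59). The ligands Fgf4, an ESC autocrine factor (18.8 and 18.1 CPM against 4.45 and 11.3 CPM), and Fgf15 (13.2 and 14.8 CPM against 2.7 and 6.46 CPM) were lowered beside Fgf5. Genes that report ERK activity were lowered too: Etv5 (93 and 69.2 CPM against 28 and 36.6 CPM), Spry4 (-1.08) and, on chromosome 8, Dusp4 (-1.50), with Dusp6 at 72.7 and 50.6 CPM against 41.8 and 42.2 CPM (log2 fold -0.55, SE 0.14, adjusted p = 0.0155). The receptor Fgfr2 was raised (32.4 and 40.2 CPM against 86.1 and 77.9 CPM; log2 fold 1.17), and Fgfr1, on chromosome 8, was not called (101 and 118 CPM against 109 and 126 CPM). Among 30 genes of other growth factors and chemokines 14 were raised and 4 lowered. The heparin-binding factor Ptn was at 22.8 and 27.9 CPM in shLacZ and at 387 and 265 CPM in shDis3l2, and Angptl2, Angpt1, the ligand that stabilizes vessels, and the chemokine receptor Ackr3 had log2 folds of 3.25, 2.99 and 2.31. The lowered members were Cxcr4 (7.99 and 11.4 CPM against 2.18 and 4.12 CPM), Kit (289 and 469.6 CPM against 209 and 322 CPM), Lif (-0.77) and Nrg1 on chromosome 8 (-1.54). Without 1 library, 6 to 13 (fewest without shDis3l2 d10) FGF genes were lowered. Fgf4 and Spry4 lost their calls without shDis3l2 d10 or shLacZ d10 (adjusted p = 0.0549 to 0.127). Kit lost its call without any 1 of the 4 libraries (adjusted p = 0.0523 to 0.698). Lif lost its call without shDis3l2 d10, shLacZ d10 or shLacZ d12 (adjusted p = 0.146 to 0.592). Dusp6 lost its call without shDis3l2 d10, shDis3l2 d12 or shLacZ d10 (adjusted p = 0.111 to 0.375).

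Guidance molecules were raised more often than tested genes in general. Of 63 semaphorin, ephrin, netrin and Slit genes 30 (47.6%) were raised and 10 (15.9%) lowered. Over all tested genes these shares were 18.4% and 15.8%, so the lowered share was near that of all genes. Among ephrin receptors, Epha3 (4.48 and 3.97 CPM against 77.8 and 61.2 CPM) and Epha8 (2.3 and 2.28 CPM against 30.3 and 57 CPM) were raised, whereas the epithelial Epha1 (76 and 46.4 CPM against 17.2 and 22.8 CPM) and Epha2 (-1.15) were lowered. The netrin receptor Unc5c was raised (2.73) and the ligand Ntn1 lowered (-0.98), and Sema6c was raised (2.64) and Sema4a lowered (-1.28). Of 36 clustered protocadherins, cell surface proteins of 1 gene array on chromosome 18, 24 were raised and 0 lowered (median 1.51). Of the 36, 10 reached the minimum of the filter in shDis3l2 alone, and among the other 26, 15 were raised and 0 lowered (median 1.24). Pcdhb19 stood at 2.3 and 3.07 CPM in shLacZ and at 17.5 and 19.7 CPM in shDis3l2 and Pcdhb22 at 3.39 and 4.17 CPM in shLacZ and at 21 and 20.1 CPM in shDis3l2; genes of the gamma cluster share exons, so their reads cannot be fully separated. Of 32 other cadherins 17 were raised and 9 lowered: the planar polarity pair Fat4 (38.6 and 45.2 CPM against 247 and 279.5 CPM) and Dchs1 (log2 fold 2.32) and Pcdh18 (2.41) were raised, and Pcdh1 (-1.31) and the kidney cadherin Cdh6 (-1.16) lowered. Cdh2, N-cadherin, was raised (40.6 and 48.5 CPM against 104 and 88.9 CPM). Without 1 library, 19 to 29 (fewest without shLacZ d10) guidance genes, 13 to 20 (fewest without shLacZ d10) clustered protocadherins and 12 to 15 (fewest without shLacZ d10, shDis3l2 d10 or shLacZ d12) other cadherins were raised. Ntn1 lost its call without shDis3l2 d10, shLacZ d10 or shLacZ d12 (adjusted p = 0.133 to 0.32). Sema4a lost its call without shLacZ d10 (adjusted p = 0.0685).

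Visceral endoderm products were lower in the libraries labelled shDis3l2 on both days. Of 24 secreted proteins of this tissue 17 were lowered and 1 raised, with a median log2 fold of -1.41. Apob, the structural protein of lipoproteins, was at 2656 and 1647 CPM in shLacZ and at 675 and 379 CPM in shDis3l2 (log2 fold -2.06, SE 0.10, adjusted p = 6.47e-07). The thyroid hormone carrier Ttr fell from 727 and 449.7 CPM to 188 and 118 CPM, the trypsin inhibitor Spink1 from 324 and 229.7 CPM to 71 and 50.8 CPM and the lipoprotein component Apom from 148 and 91.9 CPM to 43 and 22.5 CPM. Afp, alpha-fetoprotein, the major early plasma protein, was at 1440.5 and 938 CPM in shLacZ and at 468 and 414 CPM in shDis3l2 (log2 fold -1.41, SE 0.12, adjusted p = 1.44e-05), and Fgb, the fibrinogen beta chain, fell from 96.6 and 90.5 CPM to 27.6 and 24.9 CPM. The raised member was Alb, albumin, at 0.726 and 1.29 CPM against 0.379 and 20.6 CPM, where 1 library, shDis3l2 d12, stood apart from the other 3; the list's median was of the other sign. Genes that regulate endoderm or take up protein from the lumen were lowered in 18 of 22 and raised in 0 (median -1.19): the nuclear receptor Hnf4a (101 and 88.4 CPM against 30.5 and 33.8 CPM), the endocytic receptor Cubn (1143 and 927 CPM against 268 and 270.0 CPM) and its membrane anchor Amn (-1.85). Gata6, a founder factor of this lineage that mesoderm also expresses, was not called (92.2 and 159 CPM against 142 and 115 CPM). Without 1 library, 15 to 18 (fewest without shLacZ d10, shDis3l2 d10 or shLacZ d12) secreted proteins and 11 to 17 (fewest without shDis3l2 d10) regulators and receptors were lowered. Alb lost its call without shDis3l2 d12, shLacZ d10 or shLacZ d12 (adjusted p = 0.149 to 0.325). The sign turned for Alb without shDis3l2 d12 (log2 fold -1.40).

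Epithelial genes were lowered beside those of endoderm: 31 of 46 junction and keratin genes were lowered and 5 raised (median -0.85). Cdh1, E-cadherin, on chromosome 8, was at 562 and 402 CPM in shLacZ and at 187 and 198 CPM in shDis3l2 (log2 fold -1.32, SE 0.13, adjusted p = 4.81e-05), Cldn7, a tight junction claudin, at 94.3 and 58.1 CPM in shLacZ and at 30.6 and 31.2 CPM in shDis3l2 and the desmosome protein Pkp3 at 19.2 and 13.5 CPM in shLacZ and at 6.3 and 5.9 CPM in shDis3l2. Epcam (-0.88), Cldn6 (-1.28) and the simple epithelial keratins Krt8 (-0.82) and Krt18 (-1.04), none of them on chromosome 8, were lowered as well. Among the 5 raised genes were the basal keratin Krt15 (1.21 and 1.19 CPM against 8.24 and 13 CPM) and the desmosomal cadherin Dsc2 (52.8 and 40.5 CPM against 191 and 73.8 CPM). The summed epithelial markers were 1519 and 1342 CPM in shLacZ and 717 and 668 CPM in shDis3l2. Without 1 library, 20 to 29 (fewest without shLacZ d10) of the list were lowered. Trophoblast and parietal endoderm genes were divided, 5 of 19 being raised and 8 lowered, and the larger count changed side without shDis3l2 d10 and the counts were equal with no day block (3 and 3). The raised members included Plac1 (6.17 and 5.45 CPM against 16.3 and 11.4 CPM), Rhox9 (1.46), Gata2 (1.03) and Gata3 (0.89), listed here as trophoblast genes, while Tfpi (357 and 409.6 CPM against 166 and 207 CPM) and Fst (-1.06) were lowered. Which cells of the EBs held these mRNAs was not tested. Dsc2 lost its call without shLacZ d10 (adjusted p = 0.0524). Fst lost its call without shDis3l2 d10 or shLacZ d12 (adjusted p = 0.188 to 0.194). Gata2 and Rhox9 lost their calls without shDis3l2 d12, shLacZ d10 or shLacZ d12 (adjusted p = 0.0527 to 0.206). Gata3 lost its call without any 1 of the 4 libraries (adjusted p = 0.0748 to 0.23). Plac1 lost its call without shDis3l2 d10 (adjusted p = 0.0582).

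Genes of the early neural plate and of neurons were lowered in 18 of 31 and raised in 3 (median -0.95). Of the 31, 5 reached the minimum of the filter in shLacZ alone, and 4 of these were lowered. Among the other 26, 14 were lowered and 3 raised (median -0.82). Zic2, a zinc finger factor of the neural plate and epiblast, fell from 27.6 and 18.3 CPM to 2.18 and 7.49 CPM (log2 fold -2.44, SE 0.43, adjusted p = 0.00176), and Zic5 from 12.6 and 7.54 CPM to 1.8 and 3.65 CPM. The neuronal intermediate filament Ina had a log2 fold of -1.72. Sox1, the neural plate marker on chromosome 8, was low in every library and lowered (1.57 and 8.43 CPM against 0.0947 and 1.4 CPM), as was Pax6 (1.33 and 5.55 CPM against 0.852 and 2.15 CPM), and the proneural gene Neurog2 was at or under the floor in all 4. The raised members were Sox11 (54.8 and 65.5 CPM against 93.2 and 107 CPM), the intermediate filament Nes (35.3 and 32.3 CPM against 55.6 and 55 CPM) and Tubb2b (0.45). Neural crest and glia genes were raised in 4 and lowered in 2 of 10, led by the endothelin receptor Ednrb (6.66 and 5.65 CPM against 36.1 and 16.8 CPM) and Ets1 (0.50), and that balance changed without the day block or without shDis3l2 d12. Without 1 library, 6 to 13 (fewest without shDis3l2 d10) neural genes were lowered. Ets1 lost its call without shDis3l2 d10, shLacZ d10 or shLacZ d12 (adjusted p = 0.0658 to 0.292). Ina lost its call without shDis3l2 d10 or shLacZ d10 (adjusted p = 0.072 to 0.146). Sox11 and Zic5 lost their calls without shLacZ d10 (adjusted p = 0.0663 to 0.0672). Tubb2b lost its call without shDis3l2 d10, shDis3l2 d12 or shLacZ d10 (adjusted p = 0.0849 to 0.484). Pax6 lost its call without any 1 of the 4 libraries (adjusted p = 0.0526 to 0.968). Sox1 lost its call without shDis3l2 d10 or shLacZ d12 (adjusted p = 0.193 to 0.455). The sign turned for Pax6 without shLacZ d12 (log2 fold 0.06).

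Pluripotency genes were still measurable in both lines and were lower in shDis3l2, 21 of 30 being lowered and 0 raised (median -0.92). Pou5f1, the Oct4 gene, was at 218 and 143 CPM in shLacZ and at 41.6 and 86.2 CPM in shDis3l2 (log2 fold -1.57, SE 0.29, adjusted p = 0.00221). Lin28a, an RNA-binding protein that blocks let-7 maturation, fell from 351 and 319.5 CPM to 94.5 and 115 CPM (log2 fold -1.69, SE 0.12, adjusted p = 5.74e-06), Utf1, a chromatin protein of ESCs, from 31 and 18.1 CPM to 3.84 and 11.1 CPM and the Nodal coreceptor Tdgf1 from 77.5 and 49.4 CPM to 11.6 and 34.9 CPM. Nanog, a core factor of naive cells, was not called (42.5 and 43.8 CPM against 29.4 and 50.4 CPM; log2 fold -0.17, SE 0.17, adjusted p = 0.469). The summed pluripotent markers were 337 and 291 CPM in shLacZ and 112 and 208 CPM in shDis3l2. The gap narrowed between the days, the single-day medians being -1.18 and -0.56. Germline genes were raised in 2 and lowered in 7 of 18: Stra8, a target of retinoic acid at meiotic entry, rose from 0.242 and 0.397 CPM to 9.52 and 8.71 CPM (log2 fold 4.75, SE 0.41, adjusted p = 1.96e-05), and the X-linked genes Xlr3b (19 and 19.3 CPM against 6.72 and 7.58 CPM), Xlr3a, Xlr4a and Xlr4b, which can share reads, were lowered by log2 folds of -2.29 to -1.44. Both raised germline genes reached the minimum of the filter in shDis3l2 alone, and 2 of the lowered ones in shLacZ alone. Among the other 14, 0 were raised and 5 lowered. Without 1 library, 10 to 24 (fewest without shLacZ d10) pluripotency genes were lowered. Tdgf1 and Utf1 lost their calls without shLacZ d10 (adjusted p = 0.115 to 0.154).

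Blood-like genes were raised in 11 of 17 and lowered in 0 (median 1.54), at low levels. The adult beta globins Hbb-bs (1.94 and 0.496 CPM against 13 and 13.6 CPM) and Hbb-bt (3.46) and the alpha globins Hba-a2 (12.2 and 1.88 CPM against 35.3 and 20.6 CPM) and Hba-a1 (1.99) were raised, but the members of each pair are near-identical copies whose reads can be split between them. The summed blood markers stood at 32.2 and 5.36 CPM in shLacZ and 44.2 and 27.7 CPM in shDis3l2, so the control level dropped between the days. Of these 4 markers, Hbb-bh1 (1.31) and Ptprc (2.36) were raised. Hba-x (16.3 and 1.19 CPM against 15.8 and 8.24 CPM) and Gata1 (0.968 and 0.298 CPM against 1.14 and 1.03 CPM) were not called. Hbb-bh1 lost its call without shDis3l2 d10, shDis3l2 d12 or shLacZ d12 (log2 fold 0.30 to 1.61). Ptprc lost its call without shDis3l2 d12 or shLacZ d10 (log2 fold 1.42 to 1.59). Complement genes were raised in 7 and lowered in 3 of 13, with the macrophage products C1qb (0.121 and 5.75 CPM against 11 and 32.2 CPM) and C1qc (0.121 and 2.58 CPM against 5.59 and 17.4 CPM) and the inhibitor Serping1 (5.93 and 11.4 CPM against 33.2 and 28.3 CPM) raised and Cfi (7.5 and 9.62 CPM against 2.13 and 1.97 CPM), Cd55 (-0.99) and Cd59a (-1.20) lowered; the raised count fell to 2 without shLacZ d10, against 3 lowered, and to 3 without shDis3l2 d12, against 3 lowered. Endothelial genes leaned down, 9 of 21 being lowered and 3 raised (median -0.58), but the counts were equal without shDis3l2 d10 (2 and 2) or shLacZ d12 (1 and 1). The VEGF receptor Kdr, which early mesoderm also expresses, was raised (26.4 and 32.5 CPM against 182 and 99 CPM; log2 fold 2.18, SE 0.23, adjusted p = 7.92e-05), whereas Sox7 (-1.23), Flt4 (-1.17), Aplnr (-0.99) and, on chromosome 8, the endothelial cadherin Cdh5 (34 and 119 CPM against 18.6 and 55.4 CPM) were lowered, and Pecam1 was not called (12 and 15.5 CPM against 18.3 and 20.4 CPM). The summed endothelial markers were 72.4 and 167 CPM in shLacZ and 219 and 175 CPM in shDis3l2. Without 1 library, 5 to 9 (fewest without shDis3l2 d10, shLacZ d12 or shDis3l2 d12) blood-like genes were raised and 1 to 8 (fewest without shLacZ d12) endothelial genes lowered. Aplnr lost its call without shLacZ d12 (adjusted p = 0.0679). C1qb and C1qc lost their calls without shDis3l2 d12 or shLacZ d10 (adjusted p = 0.0703 to 0.169). Cdh5 and Hba-a1 lost their calls without shDis3l2 d10, shDis3l2 d12 or shLacZ d12 (adjusted p = 0.0501 to 0.949). Flt4 and Sox7 lost their calls without shDis3l2 d10 or shLacZ d12 (adjusted p = 0.0924 to 0.25). Hba-a2 lost its call without shDis3l2 d10 (adjusted p = 0.169). The sign turned for Cdh5 without shLacZ d12 (log2 fold 0.06).

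Interferon-stimulated genes were raised in 14 of 27 and lowered in 2 (median 0.68). Ifit1, which binds foreign RNA ends, was at 1.45 and 2.08 CPM in shLacZ and at 17.1 and 11.4 CPM in shDis3l2 (log2 fold 2.95, SE 0.31, adjusted p = 8.1e-05), Ifit2 at 2.66 and 5.55 CPM in shLacZ and at 25.2 and 16.9 CPM in shDis3l2 and Oasl2, a relative of the RNA-sensing oligoadenylate synthetases, at 1.33 and 2.58 CPM in shLacZ and at 9.61 and 16.5 CPM in shDis3l2. Ifit3, which has a near-identical copy, was at 0.121 and 2.18 CPM in shLacZ and at 5.02 and 5.9 CPM in shDis3l2. Of the sensors and transducers, Ddx58 and Irf9 were raised by log2 folds of 0.69 and 0.68, while Isg15 (0.242 and 0.992 CPM against 1.18 and 1.78 CPM) was not called. Bst2, a tether of enveloped viruses on chromosome 8 (41.6 and 33.1 CPM against 21.3 and 24.7 CPM), and the class I gene H2-D1 (26.1 and 34.3 CPM against 13.6 and 29.9 CPM) were lowered. Without 1 library, 6 to 11 (fewest without shLacZ d10) were raised and 0 to 3 (fewest without shLacZ d10 or shDis3l2 d10) lowered. Bst2 lost its call without shDis3l2 d10 or shLacZ d10 (adjusted p = 0.0562 to 0.145). H2-D1 lost its call without shDis3l2 d10, shLacZ d10 or shLacZ d12 (adjusted p = 0.274 to 0.871). Ifit3 lost its call without shDis3l2 d10, shDis3l2 d12 or shLacZ d10 (adjusted p = 0.0897 to 0.0998). Ddx58 lost its call without shLacZ d10 or shLacZ d12 (adjusted p = 0.0884 to 0.1). Irf9 lost its call without shDis3l2 d12, shLacZ d10 or shLacZ d12 (adjusted p = 0.0527 to 0.168).

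The interferon response element has GAAANNGAA at its core. The windows of Ifit1 (chr19:34640639-34640938, plus strand), Ifit3 (chr19:34583279-34583578, plus strand) and Bst2 (chr8:71537423-71537722, minus strand) are shown because all 3 hold the core, in capitals on either strand with overlapping matches merged, although the first pair rose and Bst2 fell (RefSeq, GRCm38.p6):
Ifit1: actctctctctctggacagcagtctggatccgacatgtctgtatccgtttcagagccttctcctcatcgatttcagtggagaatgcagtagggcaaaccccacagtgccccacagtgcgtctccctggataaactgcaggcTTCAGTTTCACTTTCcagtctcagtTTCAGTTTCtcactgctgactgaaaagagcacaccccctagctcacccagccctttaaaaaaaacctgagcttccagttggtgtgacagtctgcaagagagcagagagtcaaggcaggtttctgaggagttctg
Ifit3: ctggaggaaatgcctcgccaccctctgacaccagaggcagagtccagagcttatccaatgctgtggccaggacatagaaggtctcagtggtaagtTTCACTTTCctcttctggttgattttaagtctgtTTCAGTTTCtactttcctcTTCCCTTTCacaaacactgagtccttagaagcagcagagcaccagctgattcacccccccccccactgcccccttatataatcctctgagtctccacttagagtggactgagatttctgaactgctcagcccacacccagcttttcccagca
Bst2: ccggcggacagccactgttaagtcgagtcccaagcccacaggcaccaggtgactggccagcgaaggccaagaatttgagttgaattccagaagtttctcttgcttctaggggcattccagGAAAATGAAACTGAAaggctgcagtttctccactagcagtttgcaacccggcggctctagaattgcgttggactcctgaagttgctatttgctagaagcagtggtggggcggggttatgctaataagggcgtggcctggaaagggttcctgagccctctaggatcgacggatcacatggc
Ifit1 has 3 matches, 84 to 109 bases before the start, Ifit3 has 3, 102 to 155 bases before it, and Bst2 has 2, 124 to 130 bases before it. The core was present in 15 of 27 interferon-stimulated genes with a window (55.6%) and in 9.76% of 27025 genes. Of those 15 genes 8 were raised and 1 lowered, and of all 27 with a window 12 were raised and 2 lowered.

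Imprinted genes, which are expressed from 1 parental copy, were raised more often than lowered: of 45 tested, 23 were raised and 5 lowered (median 0.59). The zinc finger gene Zim1, expressed from the mother, rose from 37 and 34.1 CPM to 419 and 332 CPM. Of genes expressed from the father, Dlk1, a Notch-like growth regulator, rose from 66.7 and 66.4 CPM to 516 and 519.5 CPM and the zinc finger factor Plagl1 from 354 and 313 CPM to 1889 and 1343 CPM, beside Igf2. Of genes expressed from the mother, Cdkn1c, an inhibitor of cyclin-dependent kinases, rose from 8.11 and 12.5 CPM to 89.9 and 118 CPM (log2 fold 3.33, SE 0.14, adjusted p = 3.12e-07), Grb10, an adaptor that restrains insulin and IGF receptors, from 75.4 and 78.3 CPM to 596 and 476 CPM and Osbpl5 by a log2 fold of 2.21. The noncoding H19, expressed from the mother beside Igf2, rose less (2798 and 3285 CPM against 6190.1 and 4743 CPM; log2 fold 0.83). Genes of the Snrpn region, expressed from the father, divided: Snrpn fell from 66.1 and 49.2 CPM to 18.5 and 18.2 CPM and Magel2 by 0.88 on the log2 scale, while Ndn was raised (45 and 60.3 CPM against 106 and 77.7 CPM). Parental origin of the reads was not measured. Without 1 library, 13 to 20 (fewest without shDis3l2 d10 or shLacZ d10) were raised and 2 to 5 (fewest without shLacZ d10) lowered. Magel2 lost its call without shLacZ d10 (adjusted p = 0.109). H19 and Ndn lost their calls without shDis3l2 d10 or shLacZ d10 (adjusted p = 0.0891 to 0.137).

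Of the 8 calcium genes that the study singled out, a choice made on these samples and so not independent evidence of direction, 5 were raised and 0 lowered (median 0.99). Pkd2, the channel polycystin 2, was at 49.3 and 64.5 CPM in shLacZ and at 119 and 124 CPM in shDis3l2 (log2 fold 1.10, SE 0.12, adjusted p = 0.000112) and Pkd1, its receptor-like partner, at 56.2 and 93.4 CPM in shLacZ and at 125 and 145 CPM in shDis3l2 (log2 fold 0.87, SE 0.14, adjusted p = 0.00094). The calmodulin-dependent kinases Camk1g (2.18 and 3.17 CPM against 10.1 and 10 CPM), Camk1 (1.5) and Camk4 (1.74) were raised. Camk2a (8.72 and 7.83 CPM against 14.3 and 9.46 CPM; adjusted p = 0.115), Camk2g (38.9 and 40.6 CPM against 48.1 and 49.7 CPM; adjusted p = 0.105) and Rgn, regucalcin (1.09 and 1.09 CPM against 2.13 and 1.59 CPM; adjusted p = 0.203), were higher in shDis3l2 but not called. Among 16 voltage-gated calcium channel subunits 8 were raised and 2 lowered, led by the T-type pore subunits Cacna1h (5.93 and 5.45 CPM against 72.3 and 73.4 CPM) and Cacna1g (6.9 and 6.74 CPM against 33.3 and 53.4 CPM), while the L-type Cacna1d was lowered (15.5 and 33.1 CPM against 9.95 and 25 CPM). Of 25 genes of ER and membrane calcium handling 10 were raised and 2 lowered: the exporters Slc8a1 (2.42 and 2.88 CPM against 23.5 and 22.2 CPM) and Atp2b4 (2.20) were raised and the ER calcium-binding chaperone Calr, on chromosome 8, slightly lowered (-0.33). The ER pump Atp2a2 was not called (278 and 317 CPM against 246 and 293 CPM). S100 genes and annexins, which bind calcium, were raised in 8 and lowered in 6 of 19, with Anxa6 at 84.9 and 102 CPM in shLacZ and at 401 and 307 CPM in shDis3l2 and S100a1 at 231 and 173 CPM in shLacZ and at 81.8 and 86.8 CPM in shDis3l2. Without 1 library, 3 to 4 (fewest without shLacZ d10) of the 8, 5 to 7 (fewest without shLacZ d10, shLacZ d12 or shDis3l2 d12) channel subunits and 3 to 7 (fewest without shLacZ d10) ER and membrane genes were raised. Cacna1d, Calr and Camk4 lost their calls without any 1 of the 4 libraries (adjusted p = 0.0507 to 0.987). Pkd1 lost its call without shDis3l2 d12 or shLacZ d10 (adjusted p = 0.0704 to 0.112). The sign turned for Cacna1d without shLacZ d12 (log2 fold 0.11).

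Kidney lineage genes divided, 12 of 31 being raised and 9 lowered. The minimum of the filter was reached in shDis3l2 alone by 3 of the 31 and in shLacZ alone by 2. The other 26 held 9 raised and 8 lowered genes. The raised members include Hoxa11, Osr1, Wt1 and Tcf21, given above, and Gdnf, the ureteric bud inducer, low in every library (0.484 and 0.595 CPM against 1.04 and 2.9 CPM). The lowered members include Lhx1, of the early intermediate mesoderm and the node (16.2 and 9.12 CPM against 0.379 and 2.72 CPM; log2 fold -3.32, SE 0.60, adjusted p = 0.00204), Podxl, of podocytes and of embryonic epithelia (1048 and 928 CPM against 426 and 417 CPM), and Sall1, of nephron progenitors, on chromosome 8 (225 and 223 CPM against 51.1 and 80.3 CPM). Six2, which marks the nephron progenitor pool, stayed low and was not called (2.42 and 1.09 CPM against 1.18 and 2.34 CPM), and neither was the podocyte gene Nphs1 (5.57 and 4.66 CPM against 2.6 and 4.4 CPM). Without 1 library, 8 to 10 (fewest without shLacZ d10) were raised and 5 to 8 (fewest without shLacZ d10 or shDis3l2 d10) lowered. Gdnf lost its call without shDis3l2 d12, shLacZ d10 or shLacZ d12 (adjusted p = 0.187 to 0.383).

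Among general cell functions, glycolysis genes leaned down, while few ribosomal protein genes were called. Of 30 glycolysis and hypoxia genes 15 were lowered and 3 raised (median -0.48): the glucose transporters Slc2a3 (2931 and 2047 CPM against 937 and 821 CPM; log2 fold -1.49, SE 0.10, adjusted p = 5.69e-06) and Slc2a1 (577 and 655 CPM against 302 and 299.7 CPM) and lactate dehydrogenase, Ldha (1075 and 958 CPM against 476 and 593 CPM), were lowered, while hexokinase 1, Hk1, was raised (20.9 and 34 CPM against 41.1 and 55.6 CPM). Cell cycle genes were lowered in 15 and raised in 5 of 44, and in 3 and 3 without shLacZ d12, with the replication helicase subunit Mcm5, on chromosome 8, at 329 and 317 CPM in shLacZ and at 176 and 192 CPM in shDis3l2 and the mitotic activator Cdc20 at 141 and 135 CPM in shLacZ and at 87 and 90.5 CPM in shDis3l2; the proliferation marker Mki67 was not called (376 and 419 CPM against 417 and 386 CPM). The raised cell cycle genes were the kinase inhibitors Cdkn1c, Cdkn2c and Cdkn2b and the cyclins Ccnd2 (0.91) and Ccnd3 (0.60). Of 23 cholesterol genes 8 were lowered and 0 raised, with Insig1, which retains the SREBP pathway in the ER, at 208 and 267 CPM in shLacZ and at 106 and 153 CPM in shDis3l2. Of 41 genes of ER translocation and the unfolded protein response 5 were raised and 10 lowered, and 4 and 4 without shDis3l2 d12; the ER chaperone Hspa5 was not called (887 and 1062 CPM against 1039.7 and 1054 CPM), and the stress factor Atf3 was lowered (54.5 and 57.4 CPM against 21.9 and 28.8 CPM). Cytosolic ribosomal protein genes, many of which have near-identical pseudogenes, were raised in 4 and lowered in 4 of 83 (median 0.05), and oxidative phosphorylation genes in 4 and 4 of 75 (0.02). Mitochondrially encoded genes were raised in 7 of 13, led by mt-Nd3 (264 and 196 CPM against 562 and 379.8 CPM), but in 1 of 13 without any 1 library, and the share of reads on the mitochondrial chromosome was 4.78% and 3.62% in shLacZ and 5.70% and 4.24% in shDis3l2. Without 1 library, 6 to 14 (fewest without shDis3l2 d10) glycolysis, 3 to 7 (fewest without shLacZ d10 or shLacZ d12) cell cycle, 2 to 6 (fewest without shLacZ d12) cholesterol and 1 to 4 (fewest without shDis3l2 d10) ER genes were lowered. Ccnd3 lost its call without shDis3l2 d10 or shLacZ d10 (adjusted p = 0.0586 to 0.128). Cdkn2b lost its call without shDis3l2 d10, shLacZ d10 or shLacZ d12 (adjusted p = 0.108 to 0.163). Hk1 lost its call without shDis3l2 d12 or shLacZ d10 (adjusted p = 0.128 to 0.208). Cdkn2c lost its call without any 1 of the 4 libraries (adjusted p = 0.0784 to 0.195).

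Many of these genes were already called at d6 and d8, in 4 other libraries. The same test there raised 1839 of 16413 genes (11.2%) and lowered 2166 (13.2%). Of the genes raised at d10 and d12, 46.3% were raised at d6 and d8, which was 75.6% of those raised at d6 and d8. Of the lowered genes 58.5% were lowered at d6 and d8, which was 69.6% of the earlier falls. The opposite call was made for 18 raised and 15 lowered genes, and 290 raised and 58 lowered genes were not tested at d6 and d8. Single-day medians put the lists in time. The collagen median rose from 0.63 at d6 and 1.47 at d8 to 2.29 at d10 and 2.20 at d12. Smooth muscle genes were at 1.42 and 1.86 on d6 and d8 and at 1.99 and 1.17 on d10 and d12. Visceral endoderm proteins stayed between -1.62 and -1.11 over the 4 days, while the pluripotency median moved from -2.41 at d6 toward -0.56 at d12.

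**Figure D5:**
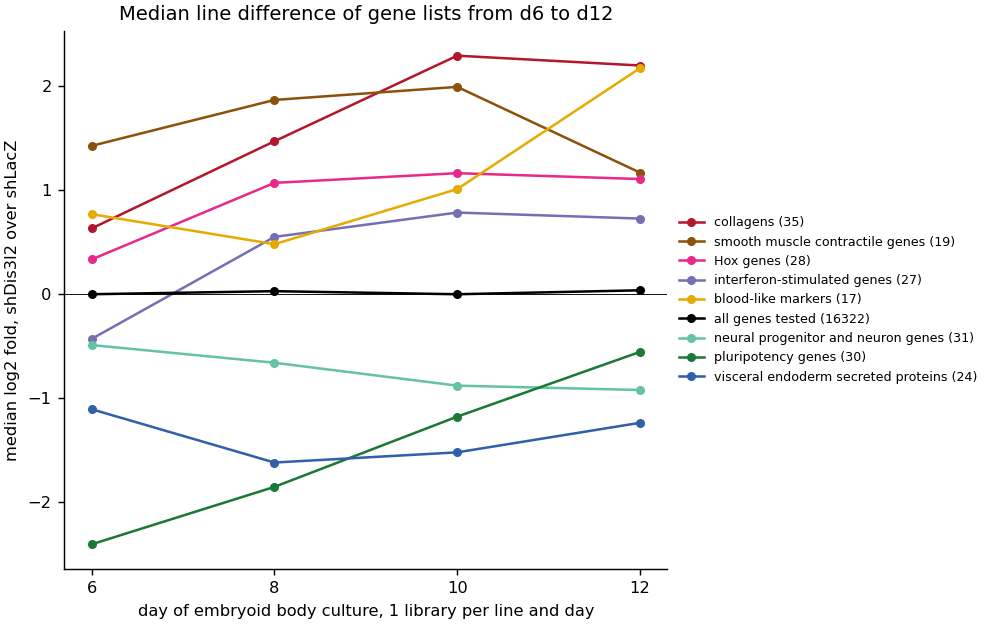
Median log2 fold (shDis3l2 over shLacZ, log2 of CPM + 0.25) of 8 gene lists, each over its members tested at d10 and d12, and of all tested genes at d6, d8, d10 and d12, 1 library per line and day. Collagens climb to 2.29 at d10, visceral endoderm proteins stay below -1, and pluripotency genes return from -2.41 to -0.56.

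Whether the line difference itself changed from d6 and d8 to d10 and d12 was tested with the interaction of line and stage in 8 libraries. Of 16016 genes 0 passed (0.0%) by edgeR, with a lowest adjusted p of 0.0676, for Lrrc17, while 1658 genes had an unadjusted p under 0.05, 1075 of them toward higher in shDis3l2 and 583 toward lower. DESeq2 on the same model called 116 genes toward higher and 45 toward lower among 14113.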

How the data were processed

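PolyA RNA from undifferentiated cells and from EBs of both lines had been sequenced on a NextSeq 500, with 1 library per line and day. Reads were aligned by the authors to GRCm38 with Subread and summed per Ensembl gene with featureCounts, and the deposited table holds raw read counts per gene for all 14 libraries. Strand and multi-mapping settings are not given in the sources used here. A second table of the authors' CPM values was not used, and 0 value columns belonged to other samples. The columns shm5-EBd10 and shm5-EBd12 were taken as shDis3l2 by elimination, since each day has 2 samples by title and its other column is named shLacZ.

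Symbols and coordinates came from GENCODE M21 on GRCm38, which matched 50462 of 50686 gene identifiers. CPM is a count over the library total. The test was edgeR's (4.0.16, R 4.3.3) quasi-likelihood F test with TMM scaling, filterByExpr, terms for day and line, and Benjamini-Hochberg adjustment, and it was tested on simulated data. Single-day folds are ratios of CPM with exact binomial counting intervals at 95%, which cover counting error only, single-day log2 folds add 0.25 CPM, and 2-fold counts took genes with at least 1 CPM in a library of each day. Alternatives used DESeq2 (1.42.0), limma-voom (3.58.1), other scalings, filters and sample sets. Figures were drawn with matplotlib (3.10.9).

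Gene lists, members and promoter motifs were chosen with earlier results of these data known, the promoters printed after other motifs had been looked at, and nothing here is independent of that choice. By rule, the genes named were the 12 largest called changes of protein-coding genes in each direction, with at least 10 CPM in both libraries of the higher line and a 3-fold difference on each day, up to 4 called members per list and direction with at least 5 CPM there, ranked by log2 fold, Dis3l2, the study's calcium genes and defining members near 0. The pair of lists of imprinted genes was read as 1 list, since Zim1 stands in it on the wrong parental side. Some members that the lists count are not reported by name here. Named outside that rule, after their values were seen, were Afp, Alb, Atp2a2, Axin2, Cdh2, Cdkn2c, Cldn6, Cnn1, Col1a1, Col3a1, Col4a5, Crb2, Ddx3y, Ddx58, Dusp6, Eif2s3y, Epcam, Etv5, Fap, Fgb, Fgfr1, Gata1, Gata6, Gdnf, H19, Hand1, Hba-x, Hbb-bh1, Hist2h2be, Hoxb1, Hoxc13, Hspa5, Id1, Igf1r, Igf2bp1, Irf9, Isg15, Krt18, Krt8, Mki67, Myocd, Nanog, Ndn, Nphs1, P3h1, P4ha3, Pax6, Pcolce2, Pdgfra, Pdgfrb, Pecam1, Pou5f1, Ptch1, Ptprc, Runx2, Scx, Shh, Six2, Sox1, Sox9, Sp5, Spry4, Tgfb1, Tgfb2, Tpbpa, Tsix, Twist1, Wnt3, Xist and Zeb1.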

Additional observations from a re-analysis of the deposited data

How the results depend on the processing

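Library totals, DESeq2 size factors, limma-voom, no filter on low counts, protein-coding genes alone, no day block and d8 added each left between 2347 and 3463 genes raised and between 1783 and 3116 lowered, within 1.5 times the counts given, as did leaving out chromosome 8 (2930 and 2233), which was added after the data had been seen. DESeq2 called 1714 raised and 1263 lowered. Leaving out 1 library, without the day block, gave 1243 to 2301 raised and 772 to 1895 lowered. A minimum of 5 CPM left 877 genes 2-fold higher and 274 lower on both days and 3-fold differences numbered 828 and 116. The change from d6 and d8 had 116 calls toward higher and 45 toward lower by DESeq2, against 0 by edgeR with TMM. With 1 library left out, the log2 fold ran from -1.25 to 0.046 for Adamts9, -2.03 to 0.055 for Cdh5, -1.28 to 0.11 for Cacna1d and -1.51 to 0.012 for Trib3, each highest without shLacZ d12, and from -1.51 to 0.0035 for Wnt4, highest without shDis3l2 d10. The cause of these turns was not tested.

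Of the 312 genes named by rule, 50 lost their call with DESeq2, 54 without the day block, 7 with library totals, 2 with no filter and 0 with limma-voom. No paired analysis was possible because the labels give no replicate numbers that pair samples, other than the pairing of the lines by day, which was the block of the test. In the libraries of d10 and d12, 3 reads were worth at most 0.363 CPM, so a difference of genes below that level was not detectable. The depth of shDis3l2 d10 was more than that of each other library of these days.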

Other observations

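Few genes differed in opposite directions on the 2 days. Of 16030 genes compared, 7 were at least 2-fold higher in shDis3l2 at d10 and 2-fold lower at d12, and 17 were the reverse. The highest levels among them were those of Hand1, a factor of lateral mesoderm, heart and trophoblast (28.3 and 65.9 CPM against 62.5 and 23.9 CPM), and Crb2, an apical polarity gene (20.6 and 34 CPM against 41.6 and 14.5 CPM). Both were higher at d12 than at d10 in shLacZ and lower at d12 than at d10 in shDis3l2. Hoxb1, an anterior Hox gene, was low and did the reverse (1.94 and 0.198 CPM against 0.758 and 2.81 CPM).

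Some genes stood high in 1 library. Alb, given above with visceral endoderm, reached 20.6 CPM in shDis3l2 d12, and Tpbpa, a marker of placental spongiotrophoblast, reached 24.8 CPM there, against 3.03 and 3.27 CPM in shLacZ and 1.7 CPM in shDis3l2 d10. Each rests on that library alone.

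Of 8 tested replication-dependent histone genes, whose mRNAs mostly lack polyA tails, 2 were raised, Hist3h2a (3.39 and 2.48 CPM against 6.01 and 5.71 CPM) and Hist2h2be (0.605 and 0.496 CPM against 1.56 and 1.78 CPM), and 0 lowered. Of the 8, 2 reached the minimum of the filter in shDis3l2 alone, and 1 of these was raised. Among the other 6, 1 was raised. Both lines carried Y-linked transcripts, with Ddx3y at 44.9 and 41.6 CPM against 52.9 and 42.9 CPM and Eif2s3y at 38.4 and 31.6 CPM against 39.3 and 32.2 CPM, neither called. Xist was low (10.4 and 4.96 CPM against 6.01 and 3.93 CPM; adjusted p = 0.0934), and Tsix, its antisense partner, was lowered (1.21 and 3.17 CPM against 0.426 and 1.12 CPM); reads of this overlapping pair cannot be told apart where strand is not counted. By class, 2821 of 13664 protein-coding genes were raised and 2360 lowered, 31 and 11 of 192 lincRNA genes, and 54 and 153 of 1718 processed pseudogenes, whose reads can come from their parent genes. Over all tested genes 18.4% were raised and 15.8% lowered, and no class was tested against these shares. Hist3h2a, Hist2h2be and Tsix lost their calls without any 1 of the 4 libraries (adjusted p = 0.0679 to 0.604).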
